A study of Rattus norvegicus with 7 samples.

Results

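The nuclear-encoded subunits of the mitochondrial respiratory chain and of ATP synthase were examined in lenses of the ICR rat, the Ihara Cataract Rat. They were chosen by name, as genes whose symbol begins with Ndufa, Ndufb, Ndufc, Ndufs, Ndufv, Uqcr, Cox4 to Cox8 or Atp5 or is Sdha, Sdhb, Sdhc or Sdhd, with the Ndufaf assembly factors left out and with a log2 value of at least 5 on 1 array or more. Of 91 genes with such a name, 69 met this floor, among 18166 named genes and 5168 genes that met the same floor. The 69 genes comprised 33 of complex I, 4 of complex II, 7 of complex III, 10 of complex IV and 15 of complex V. 61 of them were at 5 or more on every array, and 3 are annotated as pseudogenes (Ndufs6-ps1, Uqcr10-ps1 and Atp5hl1).

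Whole lenses of male ICR/Ihr rats, an inbred strain with a recessive hereditary cataract, were profiled on an Affymetrix whole-transcript rat gene array, with 1 array at each of 7 ages. The 2- and 4-week lenses had no cataracts, the 8- and 10-week lenses had cortical opacity, the 12-week lens had posterior subcapsular opacity and the 14- and 18-week lenses had nuclear opacity. All 7 lenses carried the cataract genotype and none was treated, so opacity stage and age cannot be told apart, and lenses of a strain without cataract were not analysed here. The number of animals behind an array is not given in the sources used here. No age was repeated. The spread behind each comparison of stages below therefore also holds the change from the younger to the older lens of a stage. For the slope over age, the spread is the scatter of the arrays around a straight line.

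In mitochondria, complex I (NADH dehydrogenase) and complex II (succinate dehydrogenase) pass electrons to ubiquinone, complex III passes them on to cytochrome c, and complex IV (cytochrome c oxidase) hands them to oxygen. Complexes I, III and IV pump protons out of the matrix while doing so, and complex V (ATP synthase) uses the returning protons to make ATP. In the lens, mitochondria are kept in the epithelium and the outer, young fibres, while the inner fibres degrade their organelles as they mature and live mainly on glycolysis.

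Values were log2 signals, and all differences below are on that scale, where 1 unit is a doubling. The lens fibre markers were the brightest of the marker lists, and 7 of 7 tested were lower in the lenses with nuclear opacity than in the clear lenses (median log2 difference -0.36). Their summed level on the log2 scale was 14.30 to 14.42 in the clear lenses, 14.22 to 14.32 with cortical opacity, 14.15 with posterior subcapsular opacity and 14.04 to 14.14 with nuclear opacity. The summed level of 8 lens epithelium markers was 10.07 to 10.27 in the clear lenses and 9.86 to 10.09 over the opaque ones. Ciliary body and zonule markers summed to 9.70 to 10.43 in the clear lenses and 8.61 to 9.30 in the opaque ones. Of 7 pigment cell genes Tyrp1 and Dct reached the floor, both at 2 weeks alone (7.62 and 5.58), and the summed level of the 7 was 8.29 there, 5.73 at 4 weeks and at most 5.54 in the opaque lenses. No tested gene was a photoreceptor, immune or blood cell marker, and 1 was a muscle marker (Ckm). The part of these lists in the results on the subunits was not tested, and fewer cells of a type cannot be told apart from less RNA per cell in whole lenses.

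As deposited the subunits lay near the clear level by median up to 8 weeks and were lower from 10 weeks. At 10 weeks their median was -0.06 after quantile normalization and -0.03 after median centring over tested genes. The median of all tested genes was then 0.02 and 0.05. In these scalings 42 and 41 of 69 subunits were below their clear mean at 10 weeks, against 58 as deposited. The subunits were lowest at 12 and 14 weeks as deposited, and at 14 weeks after quantile normalization (-0.20). After median centring over tested genes they were lowest at 18 weeks, with -0.16 at 12 weeks, -0.18 at 14 weeks and -0.21 at 18 weeks. From 4 to 8 weeks single subunits moved both ways, with 34 lower and 34 higher. Relative to the mean of the clear lenses, the median of the 69 subunits was 0.01 at 2 weeks, -0.01 at 4 weeks, 0.0001 at 8 weeks, -0.17 at 10 weeks, -0.33 at 12 weeks, -0.29 at 14 weeks and -0.24 at 18 weeks. The median of all 5168 tested genes moved less, to -0.10 at 10 weeks, -0.13 at 12 weeks, -0.08 at 14 weeks and -0.02 at 18 weeks. Where the arrays were quantile normalized, the median of all genes at 12 weeks moved from -0.13 to -0.004 and that of the subunits from -0.33 to -0.19. The subunits thus lay below all genes by 0.20 as deposited and by 0.18 after quantile normalization at 12 weeks, and by 0.22 and 0.21 at 18 weeks. At 12 weeks 60 of 69 subunits were below their clear mean (87.0%), against 68.9% of all tested genes. The lowest array was that at 14 weeks for 27 subunits (39.1%), against 18.0% of all tested genes. It was that at 12 weeks for 21 (30.4%), near the 25.5% of all tested genes.

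**Figure D1:**
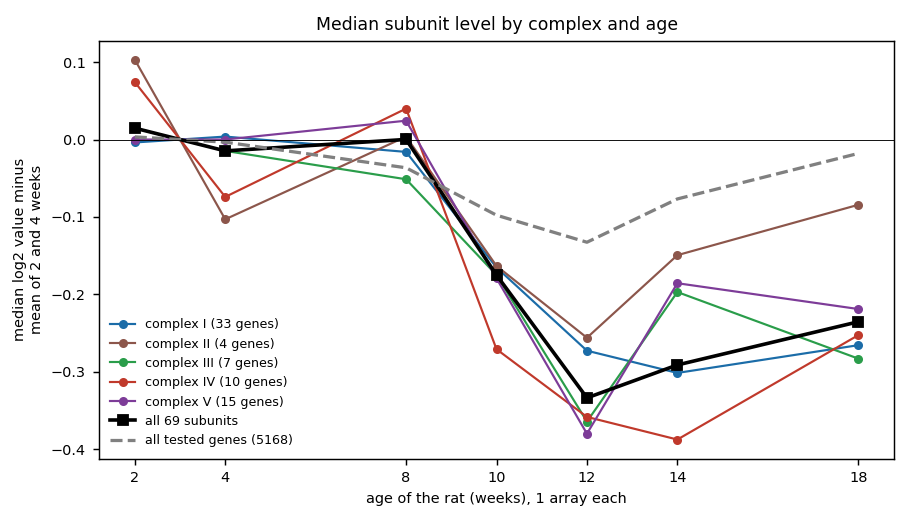
Median of the subunits of each complex on each array, as the log2 value minus the gene's mean in the 2- and 4-week clear lenses, against the age of the rat in weeks. The black line is the median of all 69 subunits and the dashed line that of 5168 tested genes. The subunits left the line of all genes between 8 and 12 weeks and lay at -0.33 against -0.13 at 12 weeks.

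Most subunits were lower at 2 successive steps between neighbouring ages. From 8 to 10 weeks 53 of 69 subunits were lower (76.8%, median step -0.15), against 58.4% of all tested genes, and from 10 to 12 weeks 52 were lower (75.4%, median step -0.13), against 55.2%. From 14 to 18 weeks the step was upward, with 48 of 69 subunits higher, beside 3162 of 5168 tested genes. The median step was 0.13, beside 0.07 over all tested genes. The 8-week array, although labelled with cortical opacity like the 10-week array, thus lay at the level of the clear lenses by median. These steps each rest on 2 arrays and carry no test.

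**Figure D2:**
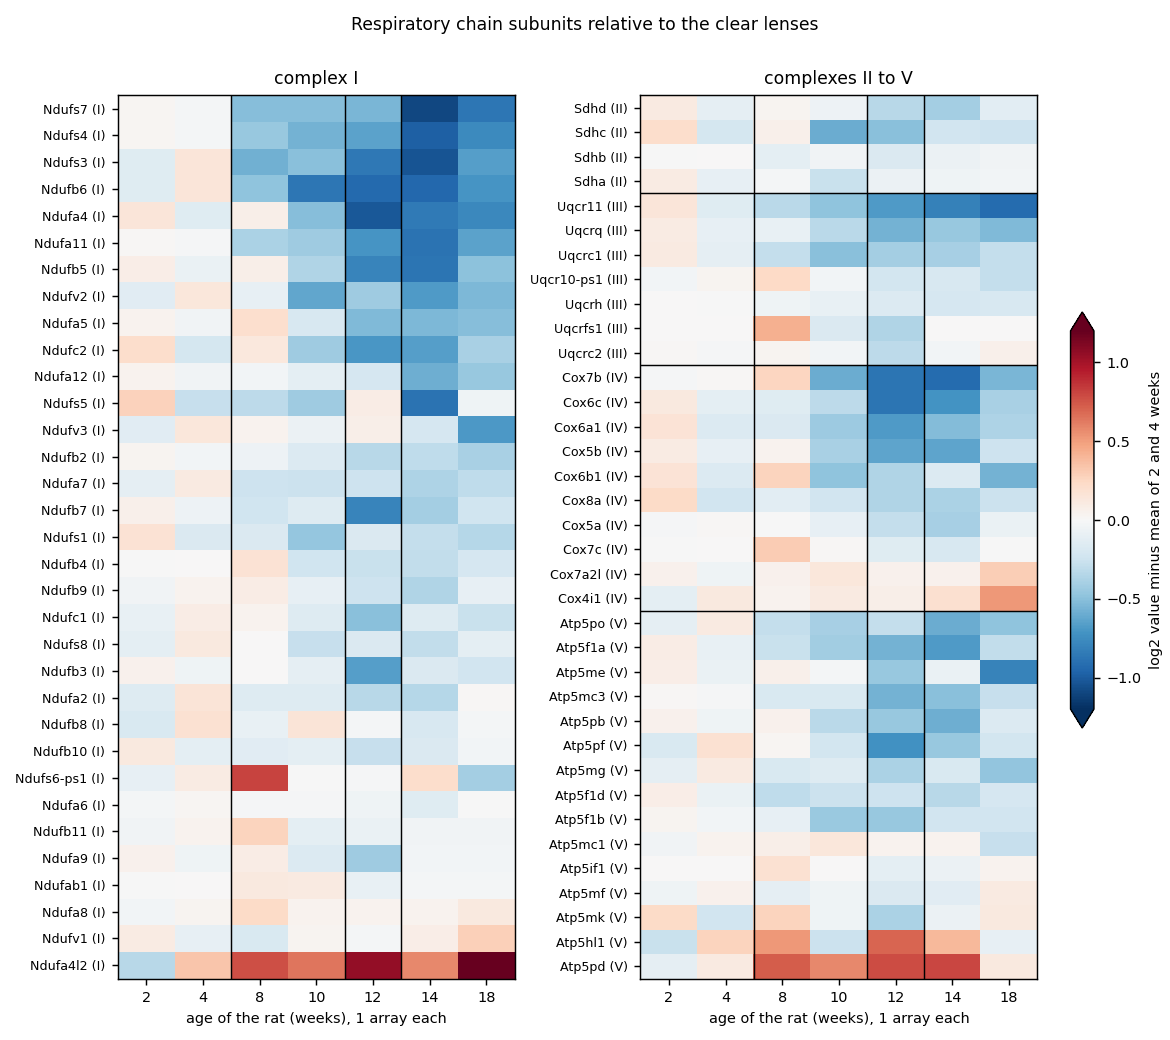
Each row is a subunit, with its complex in brackets, and each column an array, ordered by age in weeks, and colour is the log2 value minus the gene's mean at 2 and 4 weeks (blue lower, red higher). Black vertical lines separate the opacity stages. Blue dominated from 10 weeks on, and Ndufa4l2 and Atp5pd were the clearest red rows.

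Comparing opacity stages with the clear lenses asked whether subunit levels moved with the type of opacity. With cortical opacity no subunit passed an adjusted p of 0.05 by limma, and neither did any of the 5168 tested genes (0.0% called lower and 0.0% higher). At an unadjusted p under 0.05, 9 subunits were lower and 1 was higher, beside 12.9% and 3.13% of tested genes. 51 subunits had a negative difference (73.9%), against 63.7% of tested genes. The median was -0.11, close to the -0.07 of all tested genes, and after median centring the medians of complex III (0.04) and complex V (0.01) lay above 0. The 22 subunits lower on both cortical arrays than on both clear arrays (31.9%) were matched by 31.8% of tested genes.

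With posterior subcapsular opacity, represented by the 12-week array alone, again no subunit and no tested gene passed (0.0% in each direction), and 24 subunits were lower and 1 higher at an unadjusted p under 0.05, beside 18.4% and 3.48% of tested genes. 60 of 69 subunits were lower, with a median of -0.33. The difference by median was -0.27 for complex I, -0.26 for complex II, -0.36 for complex III, -0.36 for complex IV and -0.38 for complex V, so that each complex lay below the -0.13 of all tested genes. This stage has 1 array, whose spread was taken from the other stages.

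With nuclear opacity 5 subunits were lower than in the clear lenses at an adjusted p under 0.05 by limma (7.25%) and none was higher, beside 4.06% and 2.03% of tested genes. At an unadjusted p under 0.05, 21 subunits were lower and 1 was higher, beside 15.4% and 9.67% of tested genes. 60 of 69 subunits had a negative difference (87.0%), against 57.5% of tested genes, and their median was -0.26 against -0.05. Among the 61 subunits at 5 or more on every array, 53 had a negative difference (86.9%, median -0.26). On 43 subunits both nuclear arrays lay below both clear arrays (62.3%), against 33.1% of tested genes, and on 4 they lay above (5.8%), against 21.6%. The 43 include subunits that met the floor only on some arrays, among them Ndufs1, Sdhc and Cox6c. The medians were -0.31 for complex I, -0.15 for complex II, -0.24 for complex III, -0.34 for complex IV and -0.26 for complex V. These calls changed with single arrays. They were lost without the array of 2, 4, 8, 10, 14 or 18 weeks in turn. The 12-week array is the only one of its stage and adds nothing to the spread. Leaving it out could therefore not change this comparison.

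**Figure D3:**
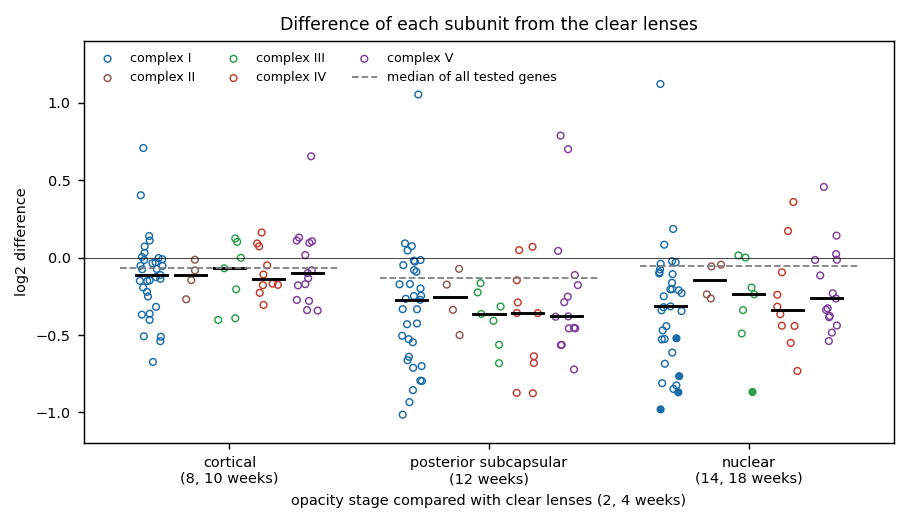
Log2 difference of each subunit (circles) from the clear lenses of 2 and 4 weeks, by opacity stage and complex. Filled circles passed an adjusted p of 0.05 by limma, black bars are medians of a complex and dashed lines medians of all tested genes. The 5 filled circles are all in the nuclear group, and 4 of them belong to complex I.

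Between nuclear and cortical opacity no subunit passed (0.0% of tested genes lower and 0.0193% higher), with 9 lower and 0 higher at an unadjusted p under 0.05, beside 4.41% and 6.73% of tested genes. 53 of 69 were lower (76.8%, median -0.15), while all tested genes were lower in 43.9% and had a median of 0.02. Both nuclear arrays lay below both cortical ones in 26 subunits (37.7%, against 14.6% of tested genes) and above them in 2 (2.9%, against 23.0%). A straight line over age, fitted to all 7 arrays, called 6 subunits lower with age (8.7%) and 1 higher, beside 5.03% and 3.66% of tested genes. Among the 61 subunits at 5 or more on every array 6 were called lower and 0 higher. At an unadjusted p under 0.05, 25 were lower and 2 higher, beside 15.7% and 10.2%. The slope was negative in 61 subunits (88.4%), against 59.2% of tested genes. The median slope was -0.022 log2 units per week, against -0.0044 over all tested genes. Leaving out 1 array changed the number called with age to 1 without the 2-week or the 4-week array, to 4 without the 8-, 10-, 12- or 14-week array and to 15 without the 18-week array.

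Of the 33 subunits of complex I 4 were called lower with nuclear opacity (12.1%), beside 4.06% of tested genes, calls that were lost with any 1 of 6 arrays left out as given above. Its catalytic core, which takes electrons from NADH and passes them to ubiquinone, has 7 nuclear-encoded subunits, of which 6 were measured, and 5 of 6 had a negative difference with nuclear opacity, with 1 called and a median of -0.46. Ndufs7, which holds the iron-sulfur cluster that hands electrons to ubiquinone, measured 7.24, 7.20, 6.71, 6.71, 6.67, 6.12 and 6.35 from the youngest to the oldest lens. Every opaque lens was below both clear lenses, and the 8-, 10- and 12-week lenses were nearly equal. It fell by 0.98 ± 0.11 (SE) on the log2 scale with nuclear opacity (2 arrays against 2, 1.97-fold lower, adjusted p = 0.0192), and its slope over age was -0.066 ± 0.012 per week (adjusted p = 0.0175, under 0.05 in 5 of the 7 fits that left out 1 array). Ndufs3, a core subunit of the hydrophilic arm, measured 5.53, 5.81, 5.09, 5.16, 4.81, 4.63 and 5.01 in order of age. It had a difference of -0.85 ± 0.17 with nuclear opacity that did not pass (adjusted p = 0.0519), although no opaque lens overlapped the clear ones.

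The other core subunits moved less. Ndufv2, of the NADH-oxidising tip, was at 7.58 and 7.86 in the clear lenses and between 7.04 and 7.29 from 10 weeks on, with a difference of -0.61 ± 0.20 that did not pass (adjusted p = 0.14). Ndufs1 was close to the floor, at 4.62 to 5.26. It met the floor only on the 2-week clear array, and so entered the core list and the fit only through a lens in which it was high. Ndufs8 ranged from 6.40 to 6.81, with overlapping groups. Ndufv1, which binds the flavin, was the exception in direction, with 5.97 and 5.78 in the clear lenses, 5.96 at 14 weeks and 6.16 at 18 weeks and a difference of 0.18 ± 0.14 that did not pass (adjusted p = 0.46).

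3 accessory subunits of complex I were also lower. Ndufs4, needed to finish assembly of the electron-input arm and mutated in human Leigh syndrome, measured 7.12, 7.08, 6.64, 6.53, 6.46, 6.12 and 6.33 in order of age. It fell by 0.87 ± 0.11 with nuclear opacity (adjusted p = 0.0251) and by 0.061 ± 0.011 per week of age (adjusted p = 0.0175, likewise in 5 of 7). Ndufa11, a subunit of the membrane arm, measured 7.61, 7.58, 7.21, 7.17, 6.88, 6.71 and 6.95, and fell by 0.77 ± 0.11 (adjusted p = 0.0307). Its slope of -0.055 ± 0.012 per week passed (adjusted p = 0.0287) and stood in 1 of those 7 fits. Ndufa12, which in mammals joins late at the arm that holds the iron-sulfur clusters, measured 8.14, 8.04, 8.06, 7.97, 7.89, 7.50 and 7.64. Its largest step came after 12 weeks, and it fell by 0.52 ± 0.10 (adjusted p = 0.0497).

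The promoter windows of the 4 subunits of complex I called lower with nuclear opacity are given here, with matches to short motif cores in capitals. Each window runs from 250 bases before to 50 bases after the RefSeq gene start, 5′ to 3′, on build GRCr8. Uqcr11, the remaining subunit called with nuclear opacity, had no window in the table used.
Ndufs7 (chr7:10110449-10110748, minus strand): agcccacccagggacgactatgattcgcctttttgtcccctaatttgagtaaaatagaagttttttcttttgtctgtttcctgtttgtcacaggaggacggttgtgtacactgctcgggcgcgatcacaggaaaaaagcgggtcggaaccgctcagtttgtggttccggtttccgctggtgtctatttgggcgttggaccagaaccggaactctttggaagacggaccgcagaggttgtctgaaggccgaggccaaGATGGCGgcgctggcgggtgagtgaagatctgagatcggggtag
Ndufs4 (chr2:47794865-47795164, minus strand): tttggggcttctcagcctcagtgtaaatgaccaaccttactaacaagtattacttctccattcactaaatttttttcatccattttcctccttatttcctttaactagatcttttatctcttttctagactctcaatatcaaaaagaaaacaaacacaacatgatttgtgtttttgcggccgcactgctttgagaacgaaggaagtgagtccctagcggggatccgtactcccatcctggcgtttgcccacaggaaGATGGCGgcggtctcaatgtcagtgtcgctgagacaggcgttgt
Ndufa11 (chr9:1637364-1637663, plus strand): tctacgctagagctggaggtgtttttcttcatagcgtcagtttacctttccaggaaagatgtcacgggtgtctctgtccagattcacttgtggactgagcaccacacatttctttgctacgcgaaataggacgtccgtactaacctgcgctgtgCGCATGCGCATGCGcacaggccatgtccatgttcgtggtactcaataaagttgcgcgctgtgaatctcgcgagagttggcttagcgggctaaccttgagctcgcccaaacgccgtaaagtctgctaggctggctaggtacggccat
Ndufa12 (chr7:30658066-30658365, plus strand): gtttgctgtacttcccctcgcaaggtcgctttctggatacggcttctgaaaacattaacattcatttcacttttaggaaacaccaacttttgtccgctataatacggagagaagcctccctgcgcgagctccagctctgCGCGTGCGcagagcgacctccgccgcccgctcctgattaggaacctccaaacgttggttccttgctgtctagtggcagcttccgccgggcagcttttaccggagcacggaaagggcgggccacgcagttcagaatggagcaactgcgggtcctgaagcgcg
In Ndufs7 and Ndufs4 the capitals are a match to the YY1 core just after the gene start, whose letters contain an ATG. In Ndufa11 they are 2 overlapping matches to the NRF1 core, and in Ndufa12 1 match to the NRF1 core, both upstream of the gene start.

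Further subunits of the membrane arm lay low without passing with nuclear opacity. Ndufb2 measured 7.36, 7.29, 7.27, 7.16, 6.99, 7.03 and 6.94, and its slope of -0.028 ± 0.0071 per week passed (adjusted p = 0.0477), but in none of the 7 fits that left out 1 array (adjusted p 0.0585 to 0.162). Ndufb6 was at 6.08 and 6.37 in the clear lenses, 5.74 at 8 weeks and between 5.29 and 5.51 from 10 weeks on, with a difference of -0.83 ± 0.18 (adjusted p = 0.0636). Ndufb5 went from 7.50 and 7.34 to 6.54 and 6.93. Ndufb7 and Ndufb3 had their lowest value at 12 weeks, 5.27 and 6.71, and differed from the clear lenses by -0.80 ± 0.13 (adjusted p = 0.0845) and -0.66 ± 0.12 (adjusted p = 0.0848) there. Both were nearer to the clear level again at 14 and 18 weeks. Ndufa5, of the hydrophilic arm, measured 7.13, 7.04, 7.29, 6.89, 6.56, 6.54 and 6.57, so that the 8-week lens was the highest and the last 3 lenses were nearly equal.

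**Figure D4:**
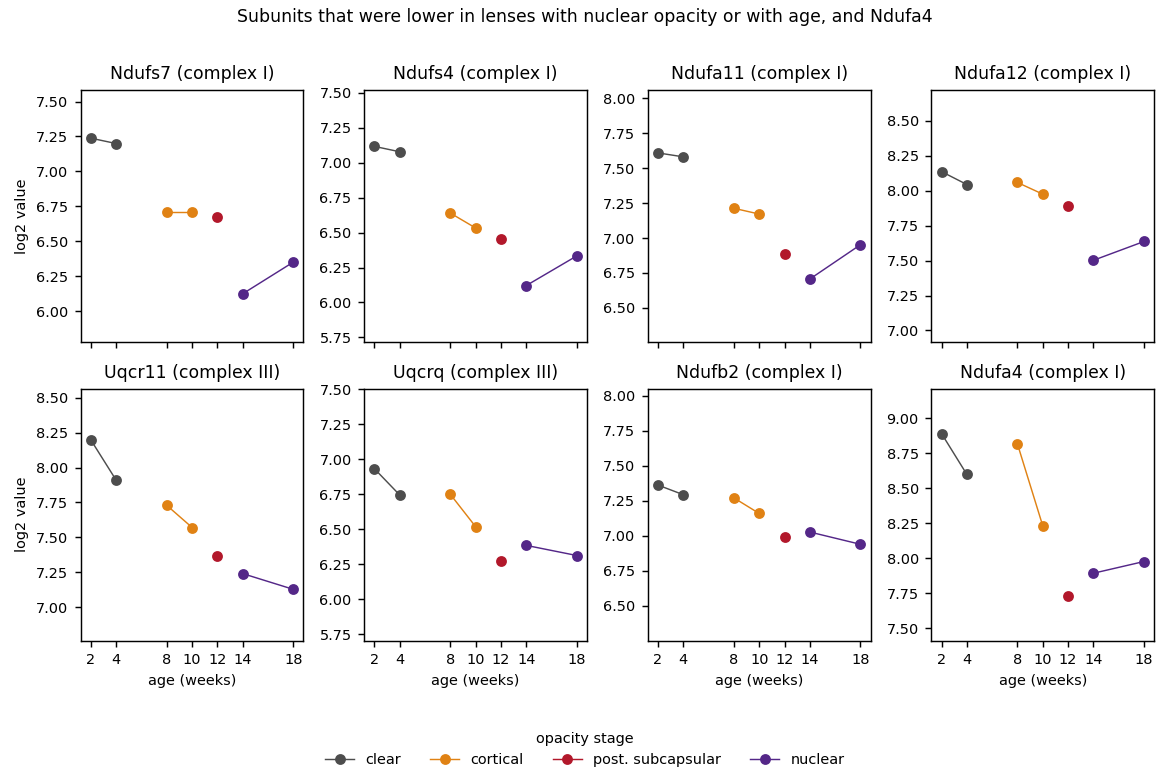
Log2 value on each array against age in weeks for 7 subunits that passed an adjusted p of 0.05 with nuclear opacity or over age, and for Ndufa4. Points are single arrays coloured by opacity stage, lines join arrays of a stage, and each panel has its own axis. In Ndufs7 and Ndufs4 all 5 opaque lenses lay below the clear lenses, whereas Ndufa12 stayed near the clear level until 12 weeks.

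Not all of complex I followed. Ndufa6 (5.99 to 6.16), and Ndufab1, the mitochondrial acyl carrier protein that also serves fatty acid synthesis (5.09 to 5.30), had the smallest ranges of the complex. Ndufa8, a twin-cysteine protein of the intermembrane space, was at 7.66 and 7.73 in the clear lenses and at 7.74 to 7.93 in the opaque ones, a shift of 0.08 ± 0.11 with nuclear opacity that did not pass (adjusted p = 0.66). Ndufs6-ps1 was highest at 8 weeks (6.87) and lowest at 18 weeks (5.66). It is annotated as a pseudogene, and whether its probes read the parent Ndufs6, which peaked at 4.90 and did not reach the floor, was not tested.

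Ndufa4 and its paralog Ndufa4l2 carry complex I names and are counted there, although the protein NDUFA4 is described as a subunit of complex IV. Ndufa4 measured 8.89, 8.60, 8.82, 8.23, 7.73, 7.89 and 7.98 in order of age. The first 3 lenses lay above the last 4, and the difference was -1.01 ± 0.27 at 12 weeks (adjusted p = 0.127) and -0.81 ± 0.22 with nuclear opacity (adjusted p = 0.0955). Ndufa4l2, which is induced by hypoxia in human cells, went the other way, with 4.00, 4.66, 5.10, 4.97, 5.38, 4.90 and 6.0. Every opaque lens was above both clear lenses, and the 18-week lens was the highest. It met the floor of 5 only on opaque arrays, those of 8, 12 and 18 weeks, and so entered the fit only through lenses in which it was high, and its rise is given as a description. Its slope was 0.097 ± 0.020 per week (adjusted p = 0.023, under 0.05 in 3 of the 7 fits that left out 1 array), and the difference with nuclear opacity was 1.12 ± 0.40 (adjusted p = 0.167), with 14- and 18-week lenses far apart. Its promoter window, shown beside those of the subunits that were lower, held none of the motif cores searched.
Ndufa4l2 (chr7:65241919-65242218, plus strand): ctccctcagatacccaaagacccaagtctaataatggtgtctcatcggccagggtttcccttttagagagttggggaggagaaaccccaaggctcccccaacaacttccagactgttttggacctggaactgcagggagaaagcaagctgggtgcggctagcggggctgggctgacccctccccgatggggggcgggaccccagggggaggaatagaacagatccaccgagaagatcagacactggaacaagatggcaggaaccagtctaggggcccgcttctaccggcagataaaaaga

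**Figure D5:**
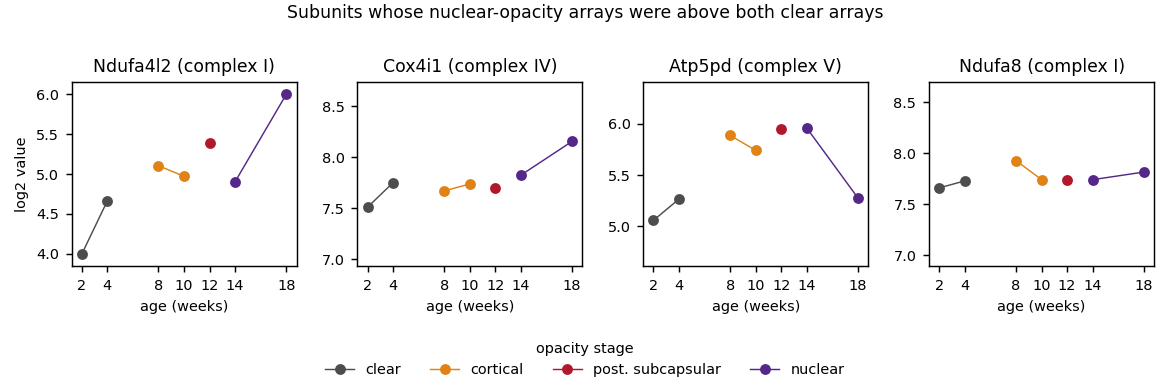
Log2 value on each array against age in weeks for the 4 subunits whose nuclear-opacity arrays both lay above both clear arrays. Points are single arrays coloured by opacity stage, and each panel has its own axis. Ndufa4l2 ran from 4.00 at 2 weeks to 6.0 at 18 weeks, Cox4i1 was highest at 18 weeks, and Atp5pd was back near its clear level at 18 weeks.

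Complex II, the only complex shared with the citric acid cycle, changed least by median with nuclear opacity, and none of its 4 subunits passed in any comparison. Sdhb, the iron-sulfur subunit, stayed between 7.55 and 7.72, and Sdha, the flavoprotein, between 5.82 and 6.19. The membrane anchors varied more. Sdhc measured 5.20, 4.77, 5.04, 4.39, 4.48, 4.75 and 4.74 and Sdhd 5.61, 5.39, 5.53, 5.44, 5.16, 5.10 and 5.38. The differences with nuclear opacity by limma were -0.24 ± 0.25 for Sdhc (adjusted p = 0.60) and -0.26 ± 0.14 for Sdhd (adjusted p = 0.30). Both nuclear lenses were below both clear ones in each gene, as in 33.1% of tested genes, and the 8-week lens lay between the clear ones. Sdhc met the floor only on the 2- and 8-week arrays, and so entered the fit only through lenses in which it was high. Its pattern is given as a description.

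Complex III held the subunit with the smallest p over age. Uqcr11, a small accessory subunit, measured 8.20, 7.91, 7.73, 7.57, 7.37, 7.24 and 7.13, lower at each successive age. It fell by 0.87 ± 0.14 with nuclear opacity (1.82-fold lower, adjusted p = 0.0332) and by 0.067 ± 0.0077 per week (adjusted p = 0.00392), and its slope passed without any 1 of the 7 arrays (adjusted p 0.00637 to 0.0392). Uqcrq, another small subunit, measured 6.93, 6.74, 6.75, 6.52, 6.28, 6.38 and 6.31, with a slope of -0.041 ± 0.0092 per week that passed (adjusted p = 0.0325) and stood in 2 of the 7 fits that left out 1 array (adjusted p 0.0385 to 0.164). Uqcrc1, a core subunit of the matrix side, was at 6.44 and 6.23 in the clear lenses and at 5.83 to 6.05 in the opaque ones, which did not pass (adjusted p = 0.18). Its partner Uqcrc2 was at 7.54 to 7.63 on 6 arrays and at 7.26 at 12 weeks. Uqcrfs1, the Rieske iron-sulfur protein, was equal at 5.21 on 4 arrays (2, 4, 14 and 18 weeks), with 5.63 at 8 weeks and 4.84 at 12 weeks. Uqcrh, the hinge protein next to cytochrome c1, moved only from 9.28 to 9.07.

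In complex IV no subunit passed. Cox7b and Cox6c, both small accessory subunits, had the largest ranges. Cox7b measured 7.49, 7.51, 7.76, 6.91, 6.63, 6.58 and 6.96, so that the first 3 lenses lay above the last 4, and differed by -0.73 ± 0.30 with nuclear opacity (adjusted p = 0.204). Cox6c measured 5.33, 5.09, 5.07, 4.90, 4.34, 4.50 and 4.83, with a difference of -0.88 ± 0.19 at 12 weeks (adjusted p = 0.103). Cox6c met the floor only on the 2-, 4- and 8-week arrays, and so entered the fit only through lenses in which it was high. The fall of Cox6c is given as a description. Cox6a1 went from 10.45 and 10.13 in the clear lenses to 9.61 at 12 weeks and 9.92 at 18 weeks. Cox5a and Cox5b, which bind next to the catalytic core, measured 8.08 and 7.53 at 2 weeks, 7.70 and 6.80 at 14 weeks and 8.01 and 7.18 at 18 weeks, nearer to the clear level again at the last age.

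2 subunits of complex IV did not share this direction. Cox4i1, the common isoform of the largest nuclear subunit, measured 7.51, 7.75, 7.67, 7.74, 7.70, 7.83 and 8.16. Its difference with nuclear opacity was 0.36 ± 0.15 (adjusted p = 0.219) and its slope 0.030 ± 0.0094 per week (adjusted p = 0.0941), neither of which passed. The alternative isoform Cox4i2 stayed below the floor, with at most 3.87. Cox7a2l, which in mice links complexes III and IV, was at 7.03 to 7.22 on 6 arrays and at 7.38 at 18 weeks. The tissue-restricted isoforms Cox6a2, Cox6b2, Cox7b2, Cox8b and Cox8c were also below the floor on every array.

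Complex V had no called subunit. All 4 measured subunits of the catalytic head, the rotor and the link to the stator were lower in each comparison with the clear lenses. Their median was -0.31 for cortical, -0.37 for posterior subcapsular and -0.37 for nuclear opacity. Of all tested genes 63.7%, 69.5% and 57.5% were lower in these comparisons, in the same order. Atp5f1a, the alpha subunit, measured 8.01, 7.84, 7.66, 7.51, 7.36, 7.25 and 7.63, and differed by -0.48 ± 0.16 with nuclear opacity (adjusted p = 0.143). Atp5f1b, the catalytic beta subunit, was at 8.90 and 8.83 in the clear lenses and at 8.41 to 8.77 in the opaque ones. Atp5f1d, the delta subunit of the rotor, went from 8.87 and 8.70 to between 8.46 and 8.59. Atp5po, which ties the head to the stator, measured 6.92, 7.13, 6.74, 6.63, 6.74, 6.43 and 6.54 and came closest to the threshold (-0.54 ± 0.12, adjusted p = 0.0594). In none of the 4 did an opaque lens overlap the clear ones, a pattern that 22.8% of all tested genes showed. The gamma subunit Atp5f1c was read only by a cluster shared with Taf3, which differed by -0.05 with nuclear opacity, and Atp5f1e was not analysed here.

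The remaining parts of complex V were mixed. Atp5pf, a stator subunit, was lowest at 12 weeks (6.03, against 6.57 and 6.93 in the clear lenses). Atp5pd, another stator subunit, measured 5.06, 5.26, 5.89, 5.74, 5.95, 5.96 and 5.27, so that the 8- to 14-week lenses were high and the 18-week lens was again near the clear ones, with a difference of 0.65 ± 0.24 with cortical opacity (adjusted p = 0.278). Atp5hl1, annotated as a pseudogene and named after the older symbol of Atp5pd, measured 5.86, 6.39, 6.64, 5.86, 6.82, 6.51 and 6.02. Whether the probes of Atp5hl1 and Atp5pd share transcripts, or read other copies of the gene, was not tested. Atp5if1, the inhibitor of ATP hydrolysis, and Atp5mf, of the membrane part, had the smallest ranges, 8.39 to 8.69 and 8.28 to 8.56.

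Over the 5 opaque lenses together, 20 subunits were below both clear lenses on every opaque array (29.0%), beside 22.8% of tested genes, and 3 were above (Atp5pd, Ndufa4l2 and Ndufa8, 4.35%), beside 7.6%. Cox6c is among the 20 and Ndufa4l2 among the 3, and each met the floor only on some arrays. The floor left out 22 of the 91 genes with a fitting name, and 61 of the 69 members met it on every array. Just inside it were Uqcr10-ps1, Sdhc and Ndufs1, with highest values of 5.13, 5.20 and 5.26, and just outside were Ndufs6, Ndufa1 and Atp5mgl3, with 4.90, 4.87 and 4.52. For 5 subunits with more than 1 probe cluster the brightest was used. The clusters differed in sign with nuclear opacity for Atp5mk (0.02 used, -0.21 in the other) and Ndufv3 (-0.44 used, 0.21 in the other, which lay below 5), and shared it for Cox5a, Cox6b1 and Ndufb3.

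Motif cores known from promoters of respiratory genes were counted in the 60 subunits that had a RefSeq promoter window of 300 bases, on both strands. The NRF1 core CGCANGCG occurred in 20 (33.3%), against 19.9% of 4339 tested genes and 8.23% of all 27457 windows. The ETS core CCGGAAG occurred in 18 (30.0%, against 20.2% and 9.22%), the YY1 core GATGGCG in 11 (18.3%, against 9.17% and 4.26%) and the ESRRA core AAGGTCA in 9 (15.0%, against 2.42% and 4.37%). 40 of the 60 held at least 1 of the 4 (66.7%, against 42.2% and 22.6%). The median difference with nuclear opacity was -0.33 in subunits with the NRF1 core and -0.24 in those without, -0.29 and -0.30 for the ETS core, -0.34 and -0.26 for the YY1 core and -0.35 and -0.24 for the ESRRA core. These are counts of letters in a window and carry no test, and matches of different cores were counted separately.

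Other mitochondrial genes were set beside the subunits. Among 13 tested genes of the citric acid cycle and pyruvate dehydrogenase, 6 were lower with nuclear opacity (median 0.01), none was called lower and 1 was called higher. That gene, Pdha1, the E1 alpha subunit of pyruvate dehydrogenase, measured 8.23, 8.33, 8.45, 8.56, 8.60, 9.21 and 9.19 in order of age and rose by 0.92 (adjusted p = 0.0183). Of all tested genes 2.03% were called higher there, and how calls over all genes changed with single arrays is given below. Of 10 electron and nucleotide carriers, 5 were lower with nuclear opacity (median -0.0024) and none was called. Over age 2 of the 10 were called lower (20.0%), beside 5.03% of tested genes. These were Cyc1, the cytochrome c1 of complex III, which measured 6.11, 6.0, 5.92, 5.92, 5.88, 5.73 and 5.61 (slope -0.029 per week, adjusted p = 0.0396), and Etfb, of the electron-transferring flavoprotein (slope -0.035 per week, adjusted p = 0.0492).

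Of 42 assembly factors named on the array 13 were tested, and 6 of these were lower with nuclear opacity (median 0.02), with none called. Over age 1 of the 13 was called higher, beside 3.66% of tested genes. Of 18 tested genes of mitochondrial protein import 10 were lower with nuclear opacity (median -0.06), with none called. Over age the chaperone Hspd1 was called lower by limma (slope -0.052 per week, adjusted p = 0.0326). That is 1 of 18 (5.56%), near the 5.03% of tested genes. Of 9 genes of mitophagy and mitochondrial dynamics 4 were lower (median 0.05), with none called. Among regulators of mitochondrial biogenesis and mitochondrial DNA 4 of 16 were tested, 3 were lower (median -0.28) and none was called, and Ppargc1a, Nrf1, Esrra and Tfam did not reach the floor. Beside these lists, the subunits had a median of -0.26 with 60 of 69 lower.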

How the data were processed

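Per the labels and the study's methods, total RNA of whole lenses was amplified, biotin-labelled and hybridised, and the authors normalized the arrays in R with Robust Multi-array Average and deposited log2 values for 36685 probe clusters. Per the labels, lenses were taken from culture medium before grinding. The array's annotation gave 18511 clusters with 1 symbol, of which 18394 took a current RefSeq symbol and 117 kept the array's, 575 with several symbols, which were set aside, and 17599 with none. The brightest cluster stood for a gene, and genes under 5 on all 7 arrays (12998) were not tested, a floor that follows the study's methods.

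Opacity stages were compared, and a slope over age fitted, with limma 3.58.1 (R 4.3.3) on 5168 genes at once, with empirical Bayes variances, two-sided tests and Benjamini-Hochberg adjustment over all of them at 0.05. The stage fit had 3 residual degrees of freedom and the age fit 5, and the number of arrays limits the precision. The labels do not say that arrays are separate animals, so p-values measure the spread between these arrays. Exactly equal values on 2 or more arrays occurred in 25 of 69 subunits (36.2%), against 48.3% of tested genes, and can lower the estimated spread. Tables were handled in Python 3.11.15 with pandas 2.3.3. No column of other samples or of the authors' comparisons was used. Promoter windows came from RefSeq, build GRCr8, with the first listed window of a gene.

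The members, gene lists and tests were chosen with earlier results of these data known. Subunits named were, per comparison and direction, up to 5 with the smallest p, per complex the 3 with the largest and 2 with the smallest range, those in the lists by role, 10 fixed subunits of complexes II to IV and 3 on each side of the floor. Lists were described by counts and medians with no set test. Alternatives were quantile normalization, median centring, a trended and robust prior, no floor, a floor of 6, the mean of clusters, array weights, 2 stages alone, log2 of age and leaving out each array.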

Additional observations from a re-analysis of the deposited data

Results flagged for a closer look

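1 probe cluster outside the measured set stood out. It is assigned both to Atp5mc2, which encodes the c subunit of the ATP synthase ring, and to its copy Atp5mc2l1, and was set aside because it names more than 1 gene. It measured 6.88, 6.87, 7.08, 7.17, 7.24, 7.42 and 7.50 in order of age, so that every opaque lens was above both clear lenses, with a mean difference of 0.59 on the log2 scale with nuclear opacity. It was picked out as a signal above the clear lenses in data the comparisons did not use, and no test was run on it. The ring subunits that were measured went the other way or overlapped, with Atp5mc3 at -0.39 and Atp5mc1 at -0.12. The other 7 set-aside clusters had mean differences of -0.77 (Ndufs5-ps2 with Ndufs5), -0.73 (Ndufa3 with Ndufa3-ps3), -0.49 (Uqcrbl1 with Uqcrb), -0.17 and -0.08 (both Cox7a2 with Cox7a2l2), -0.05 (Atp5f1c with Taf3) and 0.01 (Ndufa10 with Ndufa10l1). No stage had 4 or more arrays, so single arrays were not tested against their stage.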

How the results depend on the processing

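Under quantile normalization and median centring the median difference of the 69 subunits was -0.02 and -0.0025 with cortical opacity (reported as -0.11) and -0.19 and -0.16 with posterior subcapsular opacity (reported as -0.33), and at 12 weeks relative to the clear mean it was -0.19 and -0.16. The subunits called with nuclear opacity (5 as reported) numbered 8 with a trended and robust prior, 0 with no floor and 0 with only the 2 stages compared, and 6 or 7 under the scalings. With the same prior 1 subunit was called with posterior subcapsular opacity. Over age (7 as reported) 1 was called with no floor and 14 with array weights. With no floor more genes were tested, and with 2 stages fewer arrays were used. The calls with nuclear opacity were lost when any 1 array of the clear, cortical or nuclear stages was left out. The 12-week array could not change them. Over age, leaving out 1 array gave 1 to 15 calls. The medians then ran from -0.175 to 0.0001 with cortical opacity and from -0.26 to -0.085 between nuclear and cortical opacity. The median slope over age ran from -0.030 to -0.020 per week. The comparison at 12 weeks could not be made without its only array.

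Direction turned in 5 of 728 single-gene results, in each case where 1 array was left out. Over those fits the difference ran from -0.0032 to 0.81 for Ndufs6-ps1 with cortical opacity, from -0.051 to 0.19 for Cox4i1 at 12 weeks, and, between nuclear and cortical opacity, from -0.043 to 0.20 for Cox7a2l, from -0.13 to 0.96 for Ndufa4l2 and from -0.02 to 0.22 for Sdha. 654 of the 728 kept their direction and side of the threshold. Over all tested genes the calls with nuclear opacity were 210 lower and 105 higher as reported, 240 and 190 after quantile normalization, 272 and 221 after median centring, and 0 in all with no floor or without the 2-, 4-, 14- or 18-week array. Over age they were 260 and 189, 281 and 309, and 315 and 333, and 112 in all with no floor. The cause of these changes was not tested.

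No paired analysis was possible because each age has 1 array and the labels give no replicate numbers.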
